A study of Mus musculus with 8 samples.

Results

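The DNA replication genes examined here were 47 genes that license origins, build and move the replication fork, supply deoxynucleotides, switch on S phase or copy chromatin behind the fork. They were taken by gene symbol and Ensembl identifier from a deposited table of 53465 genes. The rule uses no measured value, but the list was drawn up with earlier results of these data known. All 47 passed the filter on low counts, which left 15388 genes. RNA was from heart ventricles of mouse embryos at embryonic day 15.5 (E15.5), in 4 libraries labelled WT and 4 with the genotype Nrg-1flox;Cdh5-CreERT2. In the latter, a Cre recombinase that tamoxifen activates and the endothelial Cdh5 promoter drives is meant to delete floxed Nrg1, the gene of the growth factor neuregulin-1, in endothelial cells. Each replicate was 1 ventricle per the labels, which give neither the time of tamoxifen nor whether WT embryos carried Cre or a floxed allele. The question put by this design is whether endothelial loss of Nrg1 altered the transcript levels of the ventricle, and here those of its replication machinery.

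Each origin of replication is licensed when the origin recognition complex (ORC), Cdc6 and Cdt1 load the Mcm2 to Mcm7 helicase onto DNA, and geminin (Gmnn) blocks Cdt1 so that no origin is licensed again in the same cycle. On entry into S phase, Cdc45 and the GINS complex switch the helicase on, primase and DNA polymerases alpha, delta and epsilon copy the strands, and the sliding clamp Pcna, placed by replication factor C, holds the polymerases on the template. Many of these genes are targets of E2F transcription factors and are transcribed in cycling cells, and in the fetal ventricle cardiomyocytes still divide.

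The targeted gene was not lower in the libraries meant to lack it. Nrg1 (ENSMUSG00000062991) was at 5.46, 4.64, 4.08 and 5.31 CPM (counts scaled to a common library size) in the WT libraries, in the order of their numbers. In the 4 other libraries it was at 6.82, 6.33, 6.16 and 5.36 CPM. The fitted log2 fold change was 0.34 (95% confidence interval 0.083 to 0.60, edgeR adjusted p = 0.311), so the groups did not differ past the threshold. A count over the whole gene does not resolve single exons, and endothelial cells were a part of the tissue. Since this check does not bear out the label, the 4 libraries are called Flox-labelled, and each fold change below is Flox-labelled minus WT.

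The table held 16761763 to 24144272 expected counts per library, and no pair of libraries differed by as little as sampling noise. The 12 ventricular cardiomyocyte markers were present in every library, with 6 fitted fold changes above 0 and 6 below. Among them Myl2 stood at 4632 to 5302 CPM, Myh6 averaged 2330 CPM in WT and 2041 CPM in Flox-labelled libraries (log2 fold change -0.19, adjusted p = 0.134), and Ttn ran from 1597 to 3648 CPM. The 12 endothelial markers, of the cell type in which Cre is driven, summed to 1620 to 1692 CPM in WT and 1524 to 1659 CPM in Flox-labelled libraries. Of these, 10 had a fold change below 0 and 5 had an unadjusted p below 0.05 (41.7%, against 10.5% of all genes). The 5 were Pecam1, Kdr, Tie1 and Esam, all below 0, and Emcn, above 0 (log2 fold change 0.18). The groups did not overlap for 3 of the 12 markers, against 6.05% of all genes. Other lists shifted too. An unadjusted p below 0.05 was found for 3 of 6 mural (50%) and 2 of 7 epicardial markers (28.6%). The share was 20% for fibroblast and for atrial markers, 10% for erythroid, 8.33% for cardiomyocyte and 0 for macrophage markers. All 7 epicardial fold changes were above 0 and all 5 atrial ones below. The atrial Kcnj3 (-0.46, adjusted p = 0.0261) was the only cell type marker with an adjusted p below 0.05. The part of these marker differences in the replication levels was not tested. Hepatocyte markers summed to under 2 CPM in every library. In 7 libraries both Xist, the noncoding RNA of the inactive X, and Y-linked genes stood above 1 CPM. The summed Y-linked level over all libraries was 69.3 to 171 CPM in WT and 42.9 to 119.9 CPM in Flox-labelled libraries. Over all genes, 81 of 15388 (0.526%) passed a false discovery rate (FDR, Benjamini-Hochberg adjusted p from edgeR's quasi-likelihood test) of 0.05.

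No DNA replication gene passed this threshold, the lowest adjusted p being 0.387 for Gins4. DESeq2 and limma voom also called 0 of the 47. At an unadjusted p below 0.05 there was 1 member (2.13%), Gins4, against 10.5% of all genes tested. In 1 member, Pold1, the groups did not overlap, against 6.05% of all genes. A fitted fold change above 0 was found for 31 members (66.0%) and 49.4% of all genes, but the sizes were small. The median was 0.016 on the log2 scale (all genes -0.0012), and the members ranged from -0.11 for Mcm10 to 0.15 for Gins4. The lean upward turned when a covariate for Y-linked levels was added (14 members above 0, median -0.017). The median was 0.000057 without WT library 4, which had the highest summed Y-linked level (171 CPM) and the lowest Xist level (0.176 CPM). In ventricle RNA as a whole, the number of cycling cells and the replication transcript per cell cannot be told apart.

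Within the fit by group alone, the intervals set a limit on what could have gone unseen. The 95% confidence interval of the log2 fold change had a median half-width of 0.105 (range 0.064 to 0.27), and it lay within a 1.25-fold difference in either direction for 46 of the 47 members. The exception was Orc1, the lowest of the members, whose interval ran from -0.36 to 0.19. The interval held 0 for 46 members, Gins4 being the exception. These intervals are per gene and were not widened for the number of genes. They do not cover the fit with the Y-linked covariate, in which estimates shifted, as for Gmnn from 0.029 to -0.060.

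**Figure D1:**
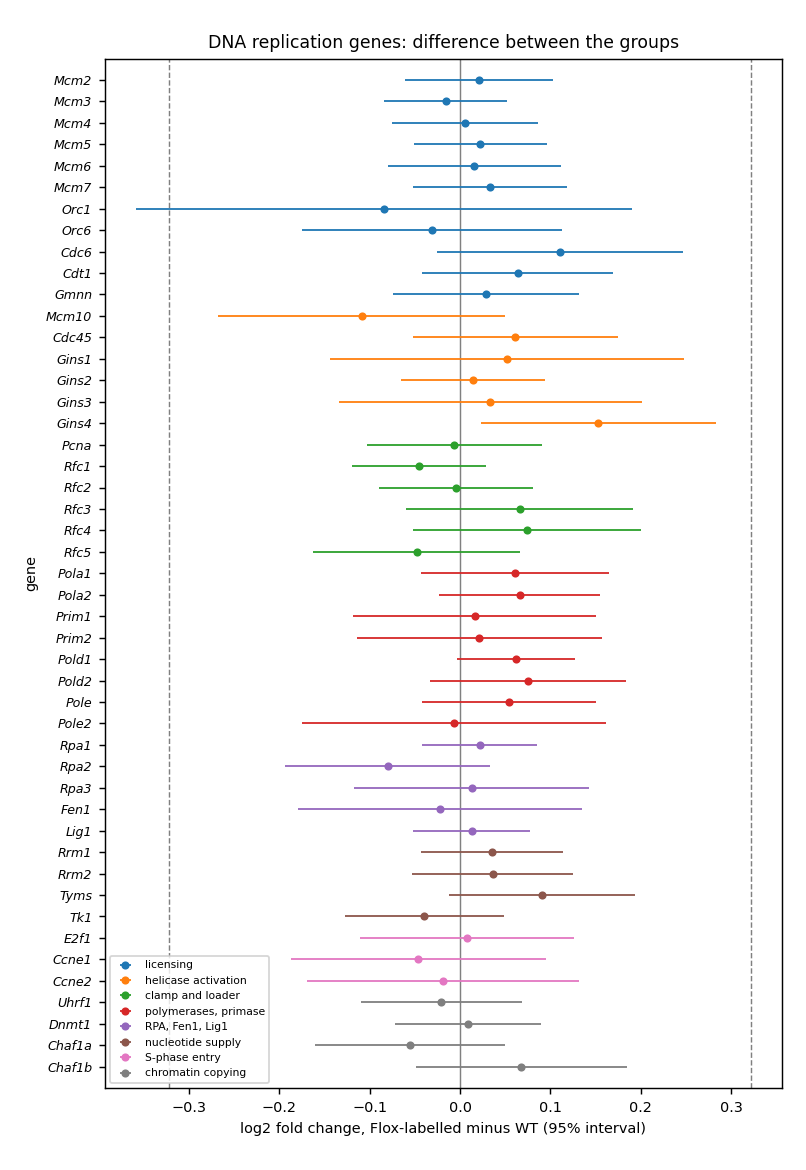
Fitted log2 fold change (Flox-labelled minus WT, horizontal axis) of each of the 47 DNA replication genes (rows), with bars for the 95% confidence interval, colours for the role and dashed lines at a 1.25-fold difference either way. The points lie between -0.11 (Mcm10) and 0.15 (Gins4), and the bar of Orc1 is the only bar that crosses a dashed line.

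As a whole the machinery was read at moderate depth. The members had from 71.1 to 5789 expected counts in a library, and their summed level was 3210.0, 3277, 3086 and 2997 CPM in WT libraries 1 to 4. In the Flox-labelled libraries the sum was 3268, 3148, 3206 and 3083 CPM. The group means were 3142 ± 125 CPM and 3176 ± 78.9 CPM (SD, n = 4 each), so the groups overlapped and their means lay closer together than the libraries within a group. Rrm1, Rrm2 and Dnmt1 made up 21.4% of the members' sum. The coefficient of variation over the 8 libraries was 1.84% to 11.6%, with a median of 5.0%. It was lowest for Rpa1 and highest for Orc1.

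Promoters of the members often held an E2F motif, which is shown here because E2F factors are known regulators of many replication genes. RefSeq promoter windows (GRCm38.p6, 250 bases before to 50 after a start site) were matched by symbol for 38 of the 47 members, and for all but Mcm4, Gmnn, Gins1, Gins2, Gins4, Rfc2, Pole, Prim2 and Ccne2. The letters TTTCGCGC, TTTGGCGC, TTTCCCGC or TTTGCCGC, on either strand, were in 15 of 38 (39.5%). They were in 2.60% of the 27025 genes with a window and in 4.57% of the 11208 of those that were tested here. The 15 were Mcm3, Mcm5, Mcm6, Mcm7, Orc1, Cdc6, Cdt1, Gins3, Rfc3, Pola1, Pold1, Pole2, Lig1, Uhrf1 and Dnmt1. The NF-Y letters CCAAT were in 24 of 38 (63.2%, against 42.6% of tested genes), and the letters TTTGAA of the cell cycle homology region, common in promoters of mitosis genes, in 6 of 38 (15.8%, against 14.3%). A match is a description of the letters and not a shown binding site, and a gene with several start sites had more chances of a match. Stretches with E2F letters are printed for Mcm5, Cdt1 and Uhrf1, 5′ to 3′ on the plus strand, with the matches in capitals. The Mcm5 stretch (chr8:75109259-75109508) is the 250 bases before the start and holds overlapping matches on opposite strands, which begin 153 and 149 bases before it. The Cdt1 stretch (chr8:122568035-122568064) lies in an exon of Cdt1, across untranslated and coding bases, with a match that begins 32 bases after the start. The Uhrf1 stretch (chr17:56304063-56304312) precedes an inner start site, within an intron of the gene, and its match begins 185 bases before that start. The window at the upstream start of Uhrf1 (chr17:56303087-56303386) held no E2F match, so Uhrf1 counts among the 15 through the inner start only.
Mcm5: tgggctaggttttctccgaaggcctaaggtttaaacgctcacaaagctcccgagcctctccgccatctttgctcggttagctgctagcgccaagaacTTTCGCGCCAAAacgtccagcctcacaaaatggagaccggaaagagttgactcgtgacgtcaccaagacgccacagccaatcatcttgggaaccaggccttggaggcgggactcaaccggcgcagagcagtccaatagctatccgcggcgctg
Cdt1: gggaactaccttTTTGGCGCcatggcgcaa
Uhrf1: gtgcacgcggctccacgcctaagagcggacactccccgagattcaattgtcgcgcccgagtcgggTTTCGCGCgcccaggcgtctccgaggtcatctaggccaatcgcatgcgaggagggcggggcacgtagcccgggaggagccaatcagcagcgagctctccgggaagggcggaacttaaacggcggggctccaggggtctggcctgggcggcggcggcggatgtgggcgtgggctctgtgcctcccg

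Licensing was represented by 11 genes, of which 8 had a fitted fold change above 0. Mcm2 (chr6:88883474-88898780 on GRCm38, minus strand) is a subunit of the helicase ring and a common marker of licensed cells. From library 1 to 4, WT had 146, 144, 137 and 131 CPM and Flox-labelled had 145, 139, 142 and 139 CPM, and this order holds below. The Flox-labelled values lay inside the WT range, and the log2 fold change was 0.021 ± 0.038 (SE, adjusted p = 0.906). Mcm5, the subunit whose promoter is printed above, was at 91.3, 98.9, 94.2 and 93.5 CPM in WT against 99.1, 94.8, 92.7 and 97.5 CPM in Flox-labelled libraries, a difference of 0.023 ± 0.034 (adjusted p = 0.884). Mcm6, the most abundant licensing gene in CPM, stood at 165, 169, 154 and 152 CPM against 173, 157, 162 and 156 CPM (0.016 ± 0.044, adjusted p = 0.947). In both genes Flox-labelled library 1 was the highest of all 8.

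The loaders and their inhibitor were also alike between the groups within their spread. Cdc6, an ATPase that loads the helicase together with ORC, had the smallest unadjusted p of the licensing genes. Its level was 22.8, 22.3, 22.0 and 20.9 CPM in WT against 26.2, 21.6, 22.8 and 24.5 CPM in Flox-labelled libraries (0.11 ± 0.063, adjusted p = 0.587). Flox-labelled libraries 1, 3 and 4 lay above the WT range, library 3 only just, and library 2 inside it. Cdt1, which brings the helicase to the origin, was at 49.3, 49.7, 46.3 and 43.7 CPM in WT against 48.3, 48.9, 52.9 and 47.3 CPM in Flox-labelled libraries (0.064 ± 0.049, adjusted p = 0.712). Gmnn was at 47.2, 49.7, 46.1 and 43.9 CPM against 49.3, 48.2, 49.1 and 43.8 CPM (0.029 ± 0.048, adjusted p = 0.896). Both groups overlapped for each of these genes. Of the 2 ORC genes, Orc6 differed by -0.031 and Orc1 (ENSMUSG00000028587) by -0.084. Orc1 stood at 5.41, 5.56, 4.04 and 5.40 CPM in WT against 5.21, 4.82, 4.99 and 4.18 CPM in Flox-labelled libraries, with WT library 3 well below the other WT libraries. The remaining helicase subunits differed by -0.016 for Mcm3, 0.0052 for Mcm4 and 0.033 for Mcm7.

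The subunits of the helicase ring enter it in equal number, and their transcripts kept a nearly fixed order. Per kilobase (kb) of exonic length, Mcm2 was lowest and was followed by Mcm5, Mcm4 and Mcm3 in all 8 libraries. Mcm7 was highest in 6 libraries, and Mcm6 in WT library 1 and Flox-labelled library 1. The ratio of the highest to the lowest level was 1.69 to 1.82 over the libraries. These levels depend on the exonic length, taken over all annotated exons of a gene, and Mcm7 shares exonic bases with Mir25 and Mir93 on its strand and with 2 genes on the other.

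Helicase activation genes held the member with the largest fold change above 0 and the member with the largest below 0. Gins4 (ENSMUSG00000031546, chr8:23226616-23237659, minus strand) encodes a subunit of GINS, which joins Cdc45 and the Mcm ring in the active helicase. Its WT levels were 25.3, 23.0, 20.99 and 24.2 CPM, and its Flox-labelled levels 25.8, 25.3, 27.5 and 25.3 CPM. WT library 1 reached the level of Flox-labelled libraries 2 and 4, so the groups overlapped. The log2 fold change was 0.15 ± 0.060 with an interval of 0.023 to 0.28 (adjusted p = 0.387). The unadjusted p stayed below 0.05 in 5 of the 8 fits that left out a library, and did not without WT library 2, WT library 3 or Flox-labelled library 3. The other GINS genes lay closer to 0. Gins2 was at 51.8, 52.1, 49.7 and 48.5 CPM in WT against 52.0, 49.0, 52.1 and 51.0 CPM in Flox-labelled libraries (0.015 ± 0.037, adjusted p = 0.941). Gins1 differed by 0.052 and Gins3 by 0.033. Mcm10, which helps start the fork, had the lowest fold change of the members at -0.11 (interval -0.27 to 0.050), and Cdc45 differed by 0.061. Gins2 shares exonic bases with Gse1 on the opposite strand, and Cdc45 with Ufd1.

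**Figure D2:**
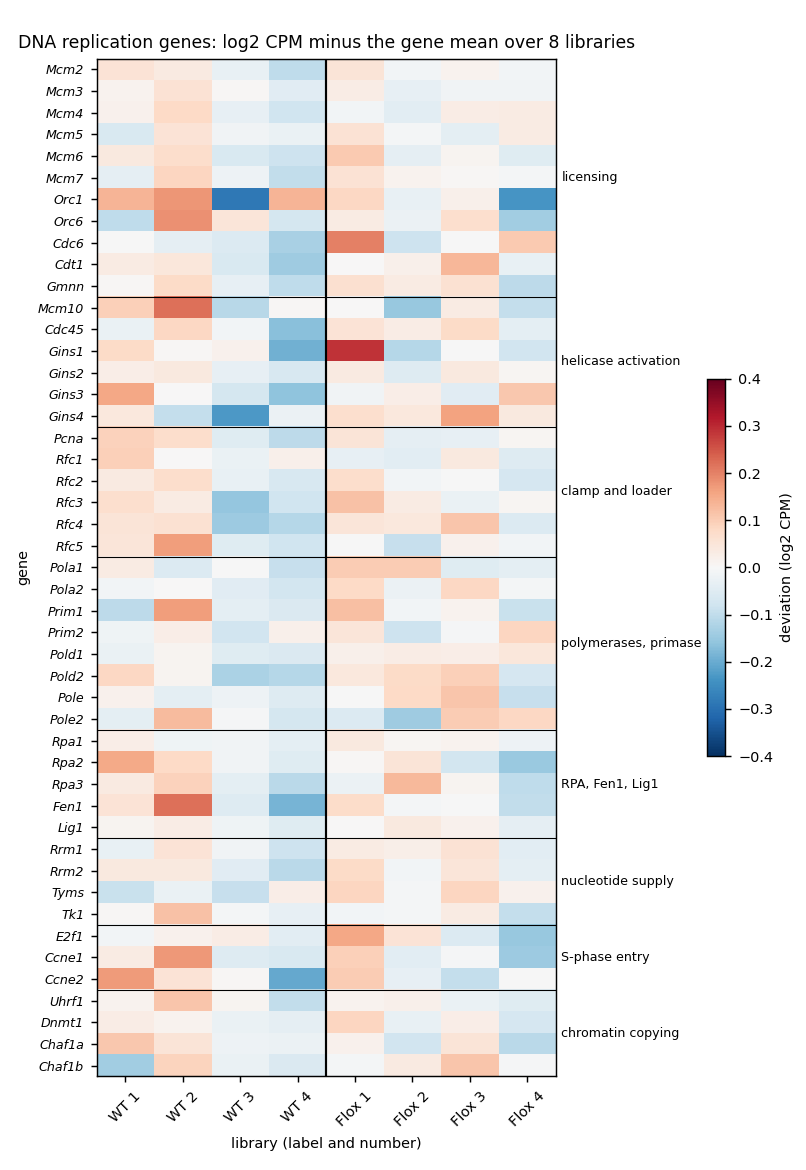
Log2 CPM of each of the 47 DNA replication genes (rows, ordered by role) in each of the 8 libraries (columns), as the deviation from the mean of that gene over the libraries. Red and blue run across columns more than across the line between the groups, with WT library 4 the lowest for 23 genes and WT library 2 the highest for 17.

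The clamp and its loader were flat between the groups. Pcna (chr2:132249162-132253314, minus strand), the sliding clamp, was at 177, 175, 161 and 155 CPM in WT against 172, 162, 163 and 167 CPM in Flox-labelled libraries (-0.0065 ± 0.045, adjusted p = 0.981). All Flox-labelled values lay inside the WT range. Rfc1, the large subunit of replication factor C, was at 86.3, 81.0, 79.4 and 82.0 CPM against 79.0, 78.4, 83.1 and 77.9 CPM (-0.045 ± 0.034, adjusted p = 0.707). In the Flox-labelled group 3 libraries were below the WT range and library 3 was inside it. The small subunits differed by -0.0045 for Rfc2, 0.066 for Rfc3, 0.074 for Rfc4 and -0.048 for Rfc5.

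Of 8 genes for polymerases and primase, 7 had a fold change above 0, and they included the only member whose groups did not overlap. Pold1 (ENSMUSG00000038644, chr7:44532746-44548849, minus strand) is the catalytic subunit of polymerase delta, which copies mainly the lagging strand. It was at 56.5, 57.9, 55.5 and 55.2 CPM in WT against 58.3, 58.7, 58.6 and 59.3 CPM in Flox-labelled libraries. The highest WT value lay just under the lowest Flox-labelled value. The difference was small, with a log2 fold change of 0.062 ± 0.030 (interval -0.0033 to 0.13, adjusted p = 0.508). Pold2, the accessory subunit of the same enzyme, was at 75.7, 71.9, 65.4 and 66.0 CPM in WT against 73.6, 75.4, 76.3 and 68.2 CPM in Flox-labelled libraries (0.075 ± 0.050, adjusted p = 0.651), and its groups overlapped. The subunits of polymerase alpha differed by 0.061 for Pola1 and 0.066 for Pola2, and those of primase, which lays the RNA primers, by 0.016 for Prim1 and 0.021 for Prim2. Pole, the catalytic subunit of the leading-strand polymerase epsilon, differed by 0.054 and Pole2 by -0.0066.

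Genes for single-stranded DNA and the lagging strand lay on both sides of 0. Rpa1, the large subunit of the single-strand binding protein RPA, varied least of the members. Its level was 128, 124, 125 and 123 CPM in WT against 129, 127, 127 and 124 CPM in Flox-labelled libraries (0.022 ± 0.029, adjusted p = 0.867). Rpa2 was at 53.8, 51.2, 47.9 and 46.9 CPM against 48.6, 50.2, 46.0 and 43.7 CPM (-0.080 ± 0.052, adjusted p = 0.647), with 2 Flox-labelled libraries below the WT range. Rpa3 differed by 0.013, the flap nuclease gene Fen1 by -0.022 and the DNA ligase gene Lig1 by 0.013.

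Rrm1 and Rrm2, the members with the highest CPM, encode the large and small subunits of ribonucleotide reductase, which makes deoxynucleotides from ribonucleotides. Rrm1 was at 234, 248, 237 and 226 CPM in WT against 244, 243, 249 and 232 CPM in Flox-labelled libraries (0.036 ± 0.036, adjusted p = 0.808). Rrm2 (chr12:24708241-24714146, plus strand) was at 234, 234, 221 and 211 CPM against 240.1, 226, 235 and 222 CPM (0.036 ± 0.041, adjusted p = 0.834). The groups overlapped in both genes. Tyms, the thymidylate synthase gene, was at 23.6, 24.7, 23.6 and 25.7 CPM in WT against 26.7, 25.0, 26.7 and 25.5 CPM in Flox-labelled libraries (0.090 ± 0.048, adjusted p = 0.550). Flox-labelled libraries 1 and 3 lay above all WT libraries, and 2 and 4 inside the WT range. Tk1, the thymidine kinase of the salvage route, differed by -0.039.

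The genes that drive S-phase entry overlapped between the groups, as did those that copy chromatin. E2f1, a transcription factor for this gene set, was at 44.4, 45.3, 45.8 and 43.5 CPM in WT against 49.8, 46.5, 43.1 and 40.3 CPM in Flox-labelled libraries (0.0078 ± 0.055, adjusted p = 0.982). The Flox-labelled values spread on both sides of the WT range, with an SD of 4.10 CPM against 0.991 CPM in WT. Ccne1, a cyclin E gene whose product activates Cdk2 before S phase, was at 23.8, 26.3, 22.5 and 22.3 CPM against 24.9, 22.6, 23.2 and 21.1 CPM (-0.046 ± 0.065, adjusted p = 0.876), and Ccne2 differed by -0.019.

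Uhrf1, which recruits Dnmt1 to newly copied DNA, was at 121, 129, 121 and 112 CPM in WT against 121, 121, 117 and 116 CPM in Flox-labelled libraries (-0.021 ± 0.041, adjusted p = 0.920). Dnmt1, the methyltransferase that keeps up CpG methylation, was at 214, 212, 206 and 205 CPM against 223, 205, 214 and 200.3 CPM (0.0091 ± 0.037, adjusted p = 0.967). Both genes overlapped between the groups. Chaf1b, a subunit of the histone chaperone CAF-1, was at 25.2, 29.5, 27.2 and 26.6 CPM in WT against 27.6, 28.4, 29.9 and 27.7 CPM in Flox-labelled libraries (0.068 ± 0.054, adjusted p = 0.726). Its partner Chaf1a differed by -0.055.

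Balances within complexes were compared as 5 ratios of CPM per kb, each with an exact permutation test over the 8 libraries whose smallest possible p is 0.0286. The ratio of Cdt1 to its inhibitor Gmnn was 0.472 ± 0.0108 in WT and 0.484 ± 0.0229 in Flox-labelled libraries (SD, n = 4 each, two-sided exact p = 0.343). For Rrm2 to Rrm1 it was 3.79 ± 0.125 and 3.79 ± 0.0885 (exact p = 0.971). Neither balance differed past the spread of the libraries. The size of a ratio depends on exonic length (2771 bases for Rrm2, 11012 for Rrm1), which is the same in both groups. Chaf1b to Chaf1a had the largest difference, with 1.31, 1.60, 1.55 and 1.52 in WT and 1.53, 1.69, 1.62 and 1.67 in Flox-labelled libraries. The log2 difference was 0.13 (exact p = 0.0857, adjusted over the 5 ratios 0.429), and the groups overlapped. Ccne2 to Ccne1 was 1.16 ± 0.109 against 1.18 ± 0.0792 (exact p = 0.686), and Pole2 to Pole was 1.13 ± 0.0780 against 1.09 ± 0.124 (exact p = 0.629). The adjusted p was 0.857 or above for each ratio other than Chaf1b to Chaf1a.

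Levels of the members spanned a wide range. Per kb of exonic length, Rrm2 was highest at 82.2 CPM, followed by Pcna at 69.4, Pold2 at 37.8, Mcm7 at 35.4, Mcm6 at 34.5 and Gmnn at 32.2 CPM. Orc1 was lowest at 1.42 CPM per kb, below Prim2 at 2.44 and Mcm10 at 2.57 CPM per kb. By this measure the clamp Pcna and the small reductase subunit Rrm2 stood apart from the rest in every library. The order rests on exonic length over all annotated exons, such as 2771 bases for Rrm2 and 11012 for Rrm1. In mean CPM, Rrm1 (239) was above Rrm2 (228), and Dnmt1 (210) was above Pcna (166). Subunits of the same enzyme could differ widely per kb, with Pold2 at 37.8 and Pold1 at 11.8 CPM per kb. In mean CPM these 2 were at 71.6 and 57.5.

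**Figure D3:**
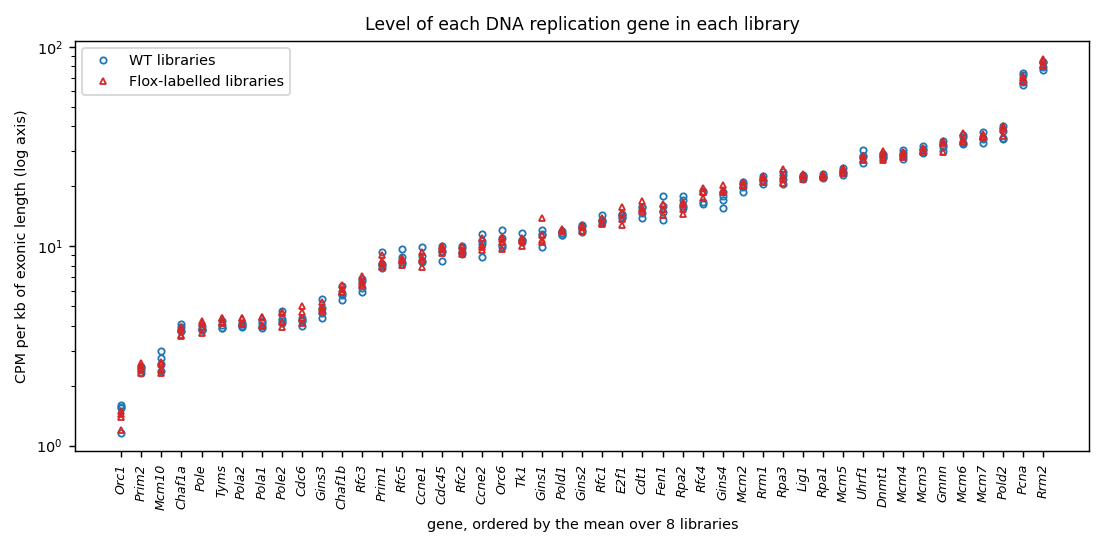
Level of each of the 47 DNA replication genes in each library, in CPM per kb of exonic length on a log axis, with genes ordered by their mean over the 8 libraries (circles WT, triangles Flox-labelled). Levels run from 1.42 (Orc1) to 82.2 (Rrm2) on average, and circles and triangles mix for all genes but Pold1, whose groups do not overlap.

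The libraries within a group lay further apart than the group means. The median deviation of the 47 members from their gene means, on the log2 CPM scale, was 0.031, 0.055, -0.031 and -0.071 in WT libraries 1 to 4. In Flox-labelled libraries 1 to 4 it was 0.050, -0.0085, 0.018 and -0.039. WT library 2 was the highest of 8 for 17 members and Flox-labelled library 1 for 11. WT library 4 was the lowest for 23 members, Flox-labelled library 4 for 11 and WT library 3 for 6. Both groups held libraries at either end. The libraries with the lowest summed replication level, WT 4, Flox-labelled 4 and WT 3, also had the highest sums of the 11 erythroid markers found in the table, at 8245, 10029 and 9406 CPM. In the other 5 libraries the erythroid sum was 4304 to 6908 CPM. The same 3 libraries had the highest summed Y-linked levels, at 171, 119.9 and 122 CPM against 42.9 to 114.9 CPM. The part of either in the replication levels was not tested.

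**Figure D4:**
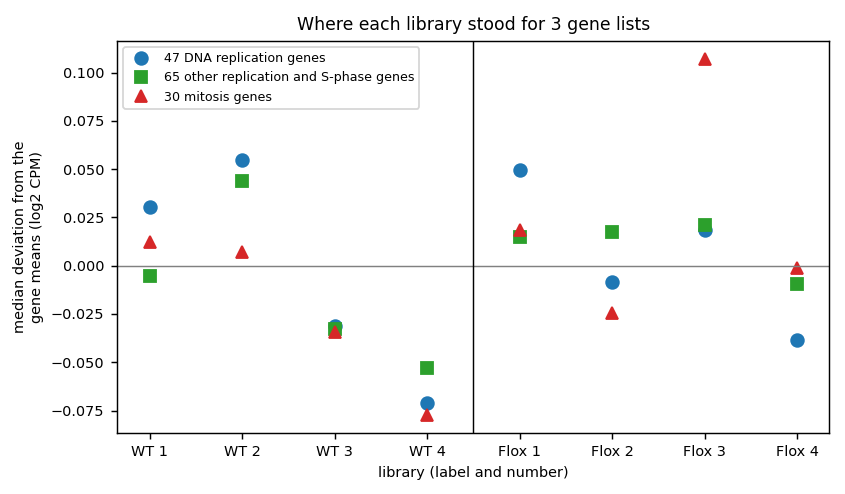
Median deviation from the gene means (log2 CPM, vertical axis) in each library for the 47 DNA replication genes (circles), 65 other replication and S-phase genes (squares) and 30 mitosis genes (triangles). WT library 4 is lowest for all 3 lists, and Flox-labelled library 3 is highest for the mitosis genes only.

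A wider list of 65 further replication and S-phase genes, all tested, was like the members in its calls but lay somewhat further above 0. None was called by edgeR (also 0 under DESeq2 and limma voom), and 3 had an unadjusted p below 0.05 (4.62%, against 10.5% of all genes). A fold change above 0 was found for 51 (78.5%, against 49.4% of all genes and 66.0% of the members). The median log2 fold change was 0.031, against 0.016 for the members. The smallest p in the upward direction belonged to Rnaseh2c, a subunit of the enzyme that removes RNA from DNA (0.20, adjusted p = 0.132), then Cdk2, the kinase partner of cyclin E (0.14, adjusted p = 0.221), and Dtymk, thymidylate kinase (0.12, adjusted p = 0.280). Below 0 they were Wdhd1, which ties polymerase alpha to the helicase (-0.095, adjusted p = 0.575), Rrm2b, a second small reductase subunit (-0.084, adjusted p = 0.677), and Pold4, a small subunit of polymerase delta (-0.11, adjusted p = 0.740). Rnaseh2c shares exonic bases with Kat5 on the opposite strand.

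The mitosis genes, which follow the replication genes in the cycle, lay somewhat further above 0 than those genes. Of 30 tested, 28 had a fold change above 0 (93.3%, against 49.4% of all genes), with a median of 0.043. Without regard to sign the median size was also 0.043, against 0.036 for the 47 members and 0.059 for all genes. An unadjusted p below 0.05 was found for 4 of the 30 (13.3%, against 10.5% of all genes). None passed an FDR of 0.05 under edgeR's quasi-likelihood test or limma voom, while DESeq2 called 3 (against 1.32% of the genes to which it gave an adjusted p). The same 3 were called by the likelihood ratio test (1.57% of all genes) and with no filter on low counts (1.15% of the 29350 genes then fitted), and Cdc20 was also called with the replicate number as a block (0.604% of all genes). The 3 were Cdc20, an activator of the anaphase-promoting complex (0.21, edgeR adjusted p = 0.0813), Ube2c, its ubiquitin-conjugating partner (0.20, adjusted p = 0.108), and Cenpa, the centromere histone (0.21, adjusted p = 0.135). Flox-labelled library 3 was the highest of 8 for 24 of the 30 genes, and WT library 4 the lowest for 17. Over the fits that left out a library, the median was 0.024 (without WT library 4) to 0.068 (without Flox-labelled library 2). The members below 0 were Ttk (-0.014) and Birc5 (-0.0039). No test of the replication genes against the mitosis genes was made.

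Counting and position set further limits on single members. Expected counts were not whole numbers in every library for 14 members, which happens when a read matching several genes is divided among them, and 12 had whole counts throughout. Exonic bases were shared with a gene on the opposite strand by 14 members and with a gene on the same strand by Mcm7, Pole2 and Rpa1. A protein-coding neighbour started head to head within 1000 bases of 9 members. The 47 genes lay on 16 chromosomes, with Pola1 on the X.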

How the data were processed

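Polyadenylated RNA was made into strand-specific libraries and read as single reads, per the labels. The table deposited by the authors holds expected counts from RSEM for each Ensembl gene, on GRCm38 and, from its name, Ensembl release 91. Expected counts are estimates that divide a read matching several genes among them, and 18.1% of the values were not whole. The submitters' processing notes name cutadapt and RSEM 1.3.1. Which aligner was used, and if reads were counted by strand, is not given in the sources used here. The paper supplied with the series describes other mouse models, so only the labels were used for this experiment.

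Counts were rounded, filtered with filterByExpr by group and scaled with TMM factors (0.9884 to 1.0147). Groups (4 WT, 4 Flox-labelled) were compared in edgeR 4.0.16 under R 4.3.3 by the quasi-likelihood test, two-sided, with p-values adjusted by Benjamini-Hochberg across the 15388 genes tested and a threshold of 0.05. Standard errors and 95% intervals were derived from that fit, and the steps were tested on simulated data. Positions and exonic lengths came from GENCODE M21 (the same assembly, a later release), which matched 53360 of 53465 identifiers. Ratios of CPM per kb were compared by exact permutation. The labels do not say whether replicates came from separate embryos, and 7 libraries held both Xist and Y-linked RNA. The p-values therefore measure the spread between these libraries.

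The members, their roles, the other lists and the ratios were chosen with earlier results of these data known. Values per library are given for Mcm2, Mcm5, Pcna, Cdt1, Gmnn, E2f1, Rrm2 and Uhrf1, for the member with the smallest p and that with the highest level in each of 8 roles, and for members with an unadjusted p below 0.05 or groups that did not overlap. In the other replication and mitosis lists the 3 smallest p-values in each direction were named. Orc1 is given in full because its interval was the widest. Alternatives were other scaling (RLE, upper quartile, totals), other filters (none, or a CPM of at least 1 in 4 libraries), the likelihood ratio test, DESeq2 1.42.0, limma 3.58.1 (voom), an FDR of 0.1, leaving out each library, the replicate number as a block, GC and length offsets (lowess span 0.3), the block with these offsets, a covariate for the summed Y-linked level, and a fit without globin and mitochondrial genes, Xist and the Y-linked genes. For the ratios, unrounded counts were tried.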

Additional observations from a re-analysis of the deposited data

Results flagged for a closer look

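In WT library 3, Orc1 stood at 4.041 CPM, far from the 5.40 to 5.56 CPM of the other 3 WT libraries. In WT library 1, the ratio of Rrm2 to Rrm1 per kb was 3.972, against 3.70 to 3.75 in the other WT libraries. Both were picked out because the gap to the nearest library, divided by the range of the group, was above the 95% critical value of the Dixon test for 4 values. Of 112 groups of 4 values examined, 2 passed this limit, and chance alone gives about 5.6. The causes were not tested.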

How the results depend on the processing

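None of the 47 members was called in any of the 21 alternative fits, where the lowest adjusted p was 0.291, nor at an FDR of 0.1. Over all genes the count of calls (81) was 190 at an FDR of 0.1, 338 with no filter, 242 under the likelihood ratio test, 195 under DESeq2 and 16 with the Y-linked covariate. It was 47, 14, 20 and 33 without WT libraries 1 to 4 and 32, 34, 11 and 142 without Flox-labelled libraries 1 to 4. Members with an unadjusted p below 0.05 numbered 3 with the Y-linked covariate (Fen1, Tk1 and Rpa2), and 0 (without Flox-labelled library 3) to 3 (without Flox-labelled library 4) over the fits that left out a library, with 2 without WT library 1, 2 or 4 or Flox-labelled library 2. Members above 0 numbered 14 with the Y-linked covariate, 31 in the 12 other alternatives that kept all libraries, and 24 (without WT library 4) to 40 (without WT library 2). The members' median log2 fold change was -0.017 with that covariate, 0.012 to 0.026 in those 12, and 0.000057 (without WT library 4) to 0.039 (without WT library 2). The Y-linked level was on average higher in WT (119 against 72.4 CPM). The parts of this covariate and of the group in the shift therefore cannot be told apart.

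With that covariate, the log2 fold change turned to -0.012 for Mcm2, -0.028 for Mcm6, -0.0056 for Cdt1, -0.060 for Gmnn, -0.0037 for Pold2, -0.019 for Rrm1, -0.011 for Rrm2, -0.059 for E2f1 and -0.017 for Dnmt1. Over the fits without a library it ranged from -0.0073 to 0.042 for Mcm2, -0.015 to 0.042 for Mcm6, -0.0029 to 0.037 for Gins2, -0.039 to 0.024 for Pcna, -0.042 to 0.053 for E2f1, -0.084 to 0.0071 for Ccne1, -0.054 to 0.014 for Uhrf1, -0.018 to 0.032 for Dnmt1, -0.047 to 0.010 for Ttk and -0.042 to 0.036 for Birc5. The log2 differences of the ratios ranged from -0.014 to 0.024 for Rrm2 to Rrm1, -0.0087 to 0.084 for Ccne2 to Ccne1 and -0.12 to 0.011 for Pole2 to Pole. None of these genes was called in any fit. For the ratios the lack of calls carries no weight, since the smallest exact p, adjusted over 5 ratios, cannot pass 0.05 for a lone ratio. The mitosis list had 3 calls with no filter, under the likelihood ratio test and under DESeq2, 1 at an FDR of 0.1, and 0 to 1 over the fits without a library, the call coming without Flox-labelled library 2.

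Libraries that share a number were not taken as pairs, since the labels do not say that they are and their correlations of deviations from the group means were 0.0998, 0.0474, 0.0447 and 0.1206, not all above 0.1. Each was above those of the 12 other pairs (-0.0877 to 0.0195), which is a hint from the data only. With the replicate number as a block, 2 members (Rpa2 and Gins4) had an unadjusted p below 0.05, 93 genes were called in all, and 1 mitosis gene (Cdc20) was called, also 1 (Cdc20) with the GC and length offsets. It changed no other call among the member counts, medians and ratios given here. The causes of these shifts were not tested. In the typical member, log2 differences below the median half-width of 0.105 could not be told from 0 at this depth and number of libraries. This holds before adjustment for the number of genes tested. With it larger differences could also be missed, as Gins4 at 0.15 had an edgeR adjusted p of 0.387.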

Other observations

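In the wider list of 65 replication and S-phase genes, the groups did not overlap for 4. This share is near that of all genes tested (6.05%), so the count does not set the list apart. They were Rnaseh2c, Dtymk, Top1 and Rbl1, and all are named here after their values were seen. Rnaseh2c stood at 22.6 to 24.7 CPM in WT and 25.4 to 28.2 CPM in Flox-labelled libraries, and Dtymk at 45.1 to 47.5 CPM and 48.0 to 53.2 CPM. Top1, the topoisomerase that relaxes DNA ahead of the fork, stood at 143 to 149.2 CPM and 149.3 to 158 CPM (log2 fold change 0.049 ± 0.032, edgeR adjusted p = 0.643). Rbl1, a relative of the retinoblastoma protein that binds E2F factors, stood at 50.1 to 51.1 CPM and 51.4 to 54.2 CPM (0.057 ± 0.031, adjusted p = 0.575). All 4 were higher in the Flox-labelled libraries, and none passed the adjusted threshold.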
